A study of Rattus with 6 samples.

Results

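This account describes 39 genes of DNA replication and S phase, chosen by name for their roles in copying the genome. All 39 matched a symbol among the 20742 genes of the deposited count table, and all 39 passed the filter on low counts that left 12882 genes for testing. They were measured in H9C2, a line of myoblast-like cells from embryonic rat heart, in 3 libraries from cells carrying a control plasmid (Ctrl) and 3 from cells carrying a plasmid for RBM25 overexpression (RBM25). RBM25 is an RNA-binding protein that takes part in splice site choice, and the comparison asks which transcripts differ when it is raised. Both groups are the same line. The sources used here state neither the promoter of the plasmid, nor the time after transfection, nor the culture behind each library, so the replicates may be technical and p-values measure only the spread between these libraries.

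Replication starts when the origin recognition complex, CDC6 and CDT1 load the MCM helicase onto DNA during G1, which is called licensing. At the start of S phase CDC45, the GINS complex and MCM10 turn the loaded helicase into an active one, polymerases and primase copy both strands, the PCNA clamp holds the polymerases on DNA, and a ligase joins the lagging-strand pieces. Many of these genes are known targets of E2F transcription factors and are transcribed together around the passage from G1 to S, so that in a dividing culture their RNA is often used as a sign of how much of the culture is cycling.

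Libraries held 25543849 to 33130256 counted reads, and each member had at least 303 reads in each library. Values by library are given for replicates 1, 2 and 3 of each group in turn. Rbm25 was at 49.2, 44.5 and 45.7 CPM in the Ctrl libraries and 56.3, 55.9 and 60.1 CPM in the RBM25 libraries, so the groups did not overlap and its log2 fold change was 0.30 ± 0.047 (standard error; edgeR adjusted p = 0.00110). Of the listed muscle markers, 10 of 14 passed the filter, led by Casq2, and the summed level of these 10 was 759 to 769 CPM in controls and 762 to 832 CPM with RBM25. The myoblast factor Myod1 was at 61.5, 58.9 and 60.9 CPM in the Ctrl libraries and 68.4, 61.6 and 54.6 CPM in the RBM25 libraries. Of 10 listed cardiomyocyte markers, 4 passed the filter and 0 the test: the cardiac transcription factors Nkx2-5 (13.5 to 17.2 CPM over the 6 libraries) and Gata4 (10.6 to 12.4 CPM), Pln (1.91 to 2.52 CPM) and Myh6 (0.157 to 0.453 CPM in controls and 0.455 to 0.505 CPM with RBM25, from 4 to 16 reads). Myh7, Nppb, Ryr2, Tnni3 and Myl7, also on the cardiomyocyte list, had at most 3 reads in any library. The summed leukocyte markers were at 38.7 to 42.2 CPM in controls and 37.9 to 43.1 CPM with RBM25, of which Cd14 made up 84.0%. Fibroblast markers summed to far more, 23144 to 25428 CPM in controls and 23409 to 24647 CPM with RBM25, of which Col1a1 made up 52.9%. Of the 8 listed, 5 passed the filter. Pdgfra had at most 2 reads in any library, and Dcn and Lum were not found in the count table. Endothelial markers summed to 104 to 109 CPM in controls and 101 to 103 CPM with RBM25, of which Eng made up 99.1%.

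Replication genes were well expressed in both groups and moved together from library to library, but the means of the groups differed by less than the spread between libraries. Together they took 0.336, 0.313 and 0.306% of the counted reads in the Ctrl libraries and 0.346, 0.326 and 0.285% in the RBM25 libraries. The group means were 0.318% ± 0.0157 and 0.319% ± 0.0309 (SD, n = 3 each). The highest and the lowest library were thus both RBM25 libraries, and the control libraries lay between them.

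The same pattern was seen when each gene counted equally. The mean over the 39 genes of log2 CPM (reads scaled to library size by TMM factors), relative to the control mean of each gene, was 0.082, -0.021 and -0.060 in the Ctrl libraries. For the RBM25 libraries it came to 0.16, 0.048 and -0.15. The average over the RBM25 libraries was 0.019, smaller than the SD of 0.073 between control libraries and of 0.16 between RBM25 libraries. Over all 12882 tested genes the corresponding library means lay between -0.0035 and 0.019. In bulk RNA, fewer cells in S phase and less of these transcripts per cell cannot be told apart.

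RBM25 replicate 3 was the lowest of the 3 RBM25 libraries for all 39 genes, as it was for 36.8% of all tested genes. RBM25 replicate 1 was the highest of its group for 36 genes (33.8% of all tested genes), and the exceptions were Pola1, Tk1 and Ccne1. Control replicate 1 was the highest control library for 36 genes, against 35.8% of all tested genes. Across both groups, 22 genes had their highest level in RBM25 replicate 1 and their lowest in RBM25 replicate 3, an arrangement found in 5.19% of all tested genes. The plot of every gene by library shows this as a red column for RBM25 replicate 1 and a blue column for RBM25 replicate 3.

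**Figure D1:**
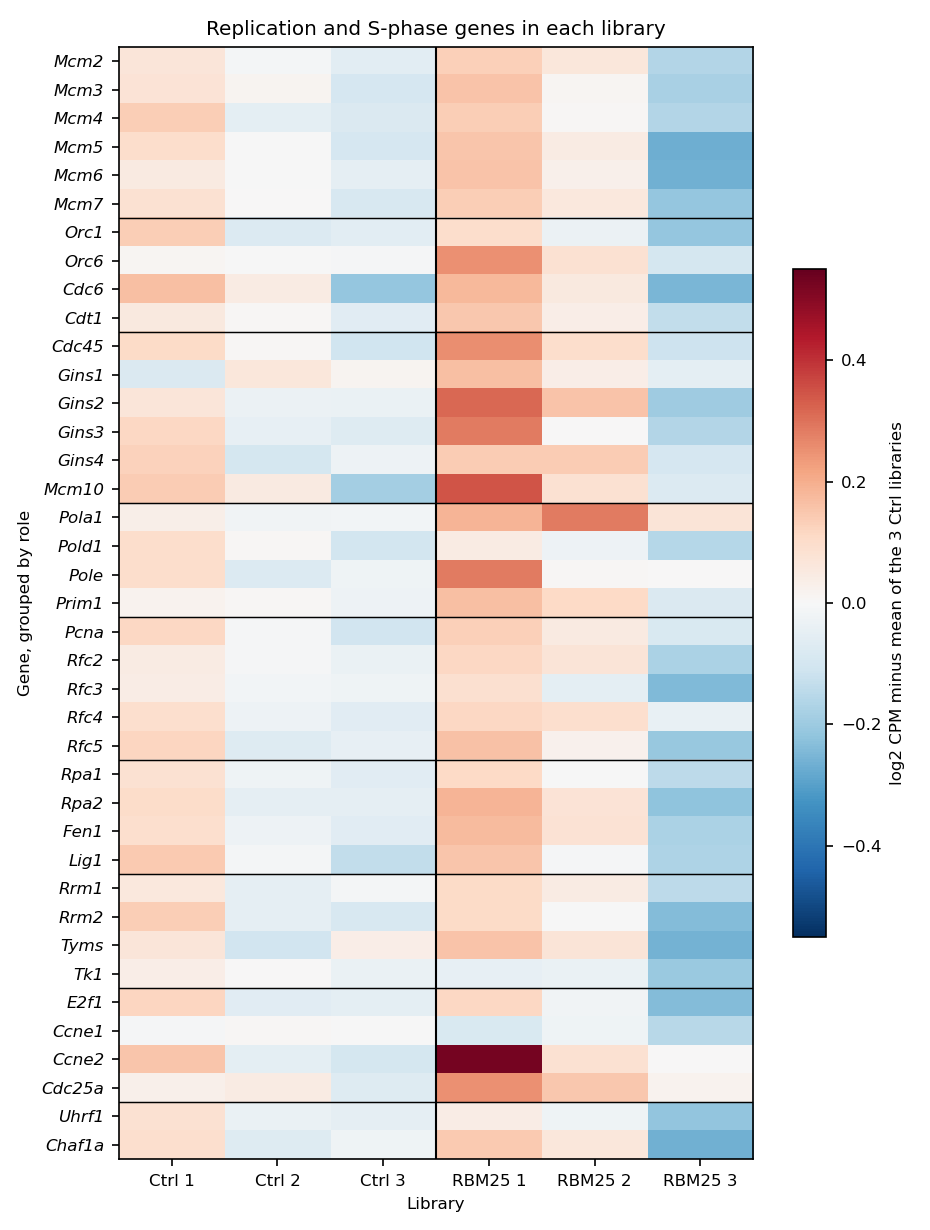
Heat map of log2 CPM minus the mean of the 3 Ctrl libraries for the 39 genes (rows, separated by role) in the 6 libraries (columns); red is above and blue below the control mean. RBM25 replicate 1 was above the control mean for 37 genes and RBM25 replicate 3 below it for 35.

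These library differences were large for genes of this abundance. The within-group SD of log2 CPM had a median of 0.13 over the 39 genes, and ranged from 0.046 for Ccne1 to 0.22 for Ccne2. Over all tested genes the median was 0.077, and over the 7830 genes within the same range of mean log2 CPM it was 0.056. When the average deviation of the other 38 genes was subtracted in each library, the median SD of the 39 genes went from 0.13 to 0.047. It became smaller for 36 genes and larger for Gins1, Pola1 and Ccne1, which followed the others least. These are descriptions of 6 libraries, without a test.

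Within the RBM25 group the mean replication level had the same order as depth, with 33130256, 31684179 and 27661354 reads, and within the controls the reverse order, with 25543849, 28850783 and 30958692 reads. The part of depth in the replication levels was not tested. The counts of RBM25 replicate 3 differed more from the other libraries of its group (chi-square per degree of freedom 6.22 and 4.79) than those differed from each other (3.21). In RBM25 replicate 3 the 10 tested muscle markers had a mean of 0.22 and a median of 0.18 above the control mean, and 8 of the 10 were above it. The mean was -0.044 and 0.027 in RBM25 replicates 1 and 2 and -0.018 to 0.017 in the controls. The 2 highest markers there had few reads, Actc1 at 0.93 (14 to 42 reads per library) and Tnnt1 at 0.56 (17 to 30 reads), and Des and Cdh15 lay close to the control mean (0.039 and 0.052). Below it were Chrnd (-0.32, 17 to 30 reads) and Myod1 (-0.15), which had the order of the replication genes within the RBM25 group. Myog, which encodes the differentiation factor myogenin, was at 20.3, 21.2 and 22.8 CPM in the Ctrl libraries and 14.6, 14.9 and 25.6 CPM in the RBM25 libraries. Troponin T, from Tnnt2, was at 112, 105 and 101 CPM in the Ctrl libraries and 94.1, 94.6 and 137 CPM in the RBM25 libraries. RBM25 replicate 3 was the highest library for both. The summed epithelial markers were at 780 to 838 CPM in controls and 756 to 903 CPM with RBM25, of which Krt7, a keratin, made up 96.7%. Krt7 was at 813, 791 and 753 CPM in the Ctrl libraries and 877, 825 and 726 CPM in the RBM25 libraries, in the order of the replication genes within each group. Krt8 did not have this order. It was at 25.0, 28.6 and 26.5 CPM in the Ctrl libraries and 25.7, 26.6 and 29.8 CPM in the RBM25 libraries, highest in RBM25 replicate 3. The other 6 of the 8 listed epithelial markers had under 10 reads in every library. The part of these markers in the replication levels was not tested.

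Other genes of DNA replication and cell division shared part of the pattern. For 81 tested genes of a wider replication list, the same measure came to 0.12, 0.063 and -0.053 in the RBM25 libraries and to 0.044, -0.012 and -0.033 in the controls. For 30 mitosis genes it was 0.10, 0.037 and -0.13 with RBM25 and 0.056, -0.025 and -0.031 in the controls. RBM25 replicate 3 was the lowest of its group for 59 of the 81 wider genes and 29 of the 30 mitosis genes. Whether the 39 genes moved further than these lists was not tested.

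**Figure D2:**
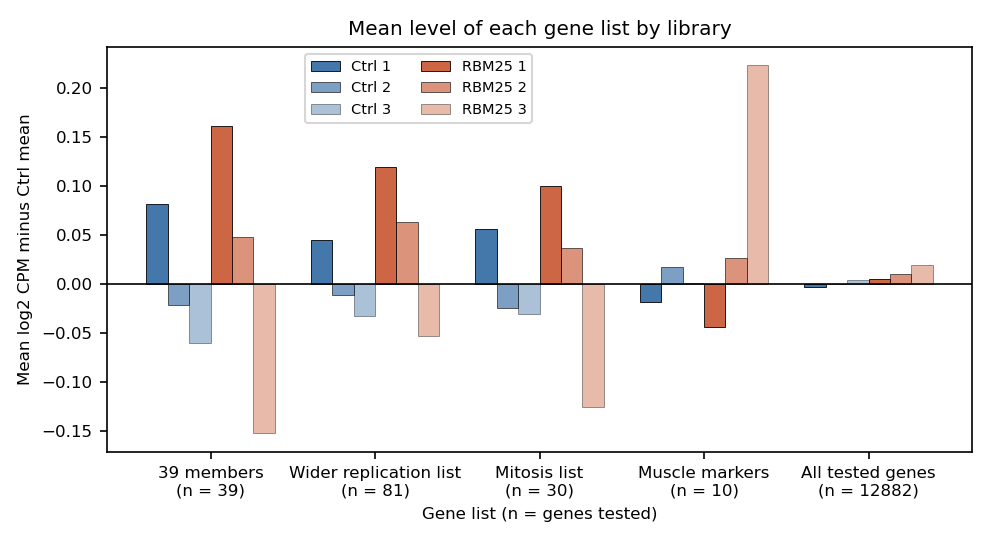
Bars give, for each library, the mean over the genes of a list of log2 CPM minus the mean of the 3 Ctrl libraries (blue, Ctrl; red, RBM25; replicates 1 to 3 from dark to light). For the 39 replication genes the bars run from 0.16 in RBM25 replicate 1 to -0.15 in RBM25 replicate 3, while the bar of the muscle markers is highest, at 0.22, in RBM25 replicate 3.

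In the test of RBM25 against control, 0 of the 39 genes passed an adjusted p under 0.05 (edgeR, Benjamini-Hochberg over all 12882 genes), where 0.404% of all tested genes passed. DESeq2 also called 0, and 0.326% of the same 12882 genes. At an unadjusted p under 0.05 edgeR had 3 of the 39 (7.69%), against 11.2% of all tested genes, and DESeq2 had 2, against 6.52% of the same genes. The median log2 fold change of the 39 was 0.0064, beside -0.0021 for all tested genes, with 25 positive and 14 negative. Their 95% intervals did not extend below 0.773-fold or above 1.43-fold, so all 39 intervals lay within 1.5-fold in either direction. The distance from the estimate to the end of its interval had a median of 0.18 on the log2 scale. The groups did not overlap for Pola1, where RBM25 was above (8.31% of all tested genes), and for Ccne1, where it was below (7.94%).

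**Figure D3:**
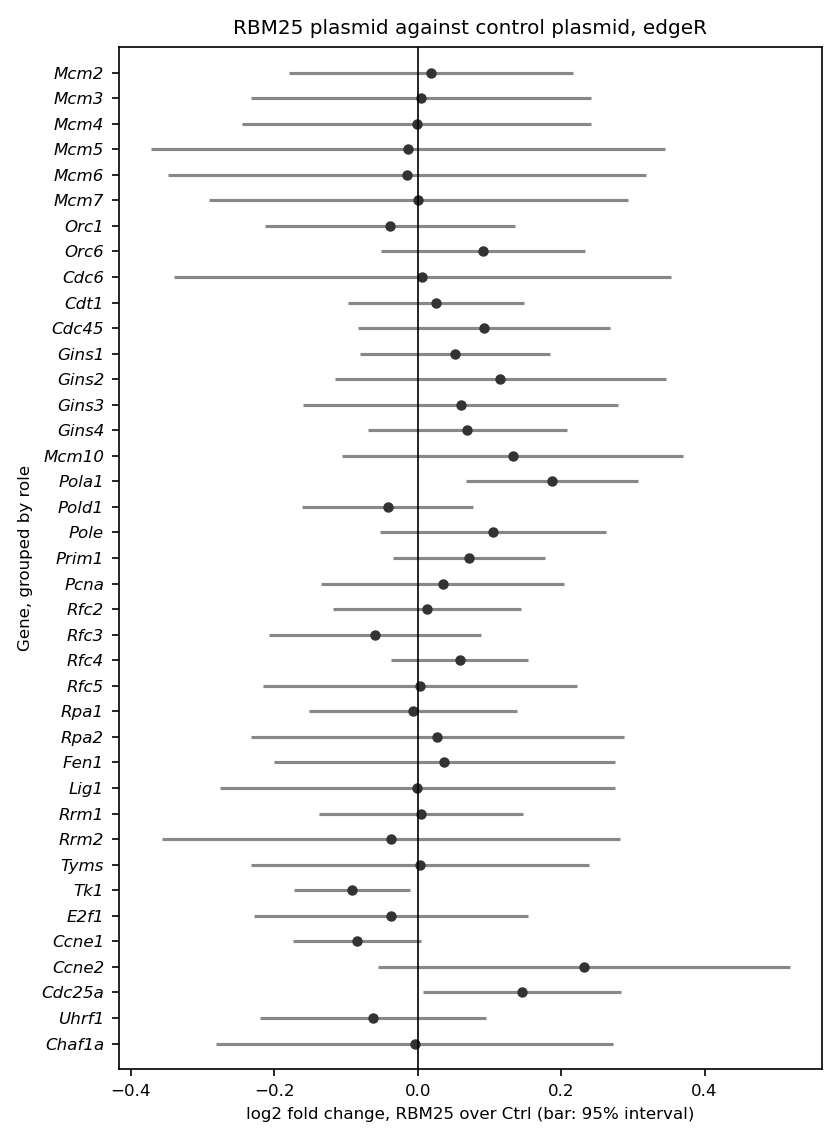
Points give the edgeR log2 fold change of RBM25 over Ctrl for each of the 39 genes and bars its 95% interval (3 libraries a group). Intervals of 36 genes include 0; those of Pola1, Cdc25a and Tk1 do not, and none of the 39 passed the adjusted threshold.

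The count of calls depended on RBM25 replicate 3. Without RBM25 replicate 3, the median log2 fold change of the 39 genes was 0.098, 37 were positive and 21 had an unadjusted p under 0.05 (14.9% of all genes tested in that fit). Then 3 passed, all higher with RBM25: Pola1 (log2 fold change 0.24), Prim1 (0.14) and Gins2 (0.24), at edgeR adjusted p = 0.0127, 0.0239 and 0.0467, against 1.50% of all genes called higher in that fit. Without RBM25 replicate 1, the median was -0.067, 10 were positive and 0 passed (0.444% of all genes in that fit), with 4 at an unadjusted p under 0.05 (10.1%). In the fits without any other single library 0 passed, where 0.0380 to 0.403% of all genes did.

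The MCM2 to MCM7 helicase genes, whose products form the ring that unwinds DNA, gave log2 fold changes of -0.015 to 0.018. Mcm2 was at 164, 155 and 150.5 CPM in the Ctrl libraries and 171, 164 and 140.1 CPM in the RBM25 libraries, with a log2 fold change of 0.018 ± 0.080 (standard error; edgeR adjusted p = 0.963). For Mcm7 the levels were 220.4, 208 and 196 CPM in the Ctrl libraries and 228, 216 and 179 CPM in the RBM25 libraries, and the log2 fold change was 0.0010 ± 0.11 (standard error; edgeR adjusted p = 0.999). In both genes the RBM25 libraries spanned a wider range than the controls and enclosed them. Mcm5 and Mcm6 had the widest intervals of the 6 (log2 -0.37 to 0.35 and -0.35 to 0.32), as their level in RBM25 replicate 3, 177 and 152 CPM, stood furthest below the other 2 RBM25 libraries.

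Per gene length, the helicase genes were not equally abundant, although their products act in a ring with 1 copy of each. Deposited FPKM (reads scaled to gene length and library size) were 73.1 ± 4.28 FPKM for Mcm7, 60.7 ± 3.89 FPKM for Mcm5, 58.1 ± 1.94 FPKM for Mcm6, 42.8 ± 1.87 FPKM for Mcm2, 32.4 ± 1.87 FPKM for Mcm3 and 31.8 ± 2.61 FPKM for Mcm4 in controls (SD, n = 3). This order held in all 6 libraries except between Mcm3 and Mcm4, which changed places in 1 library. Ranges over the 6 libraries were separate between Mcm6 and Mcm2 and between Mcm2 and Mcm3, and overlapped between the other neighbours. The order rests in part on the gene lengths used for FPKM. By reads alone, the control mean of Mcm5 (213 ± 13.8 CPM) was above that of Mcm7 (208 ± 12.4 CPM). That of Mcm4 (115 ± 9.48 CPM) was likewise above that of Mcm3 (103 ± 6.06 CPM; SD, n = 3). The ratio of Mcm7 to Mcm4 FPKM varied less than either gene: it was 2.22 to 2.40 over the 6 libraries, a coefficient of variation of 3.25%, against 8.22% for Mcm7 and 7.93% for Mcm4 alone. Likewise Mcm5 to Mcm3 had a coefficient of variation of 2.88%, against 9.66% and 7.80% alone. Among the other pairs of replication genes compared, this did not hold for Gins1 and Gins3, Rfc4 and Rfc5, or Ccne1 and Ccne2.

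Origin licensing genes did not differ between the plasmids beyond their spread. Orc6, a subunit of the origin recognition complex, was at 27.4, 27.1 and 27.1 CPM in the Ctrl libraries and 32.4, 28.8 and 25.4 CPM in the RBM25 libraries (log2 fold change 0.091 ± 0.069, standard error; edgeR adjusted p = 0.660). Its 3 control values agreed closely, and RBM25 replicates 1 and 3 lay on either side of them. Cdt1, which brings the helicase to the origin, was at 45.8, 44.3 and 42.2 CPM in the Ctrl libraries and 48.9, 45.2 and 40.2 CPM in the RBM25 libraries (log2 fold change 0.025 ± 0.059, standard error; edgeR adjusted p = 0.914). Cdc6, the ATPase that works beside it, spanned 22.2 to 30.0 CPM over the 6 libraries, and Orc1, the largest subunit of the complex, 11.7 to 14.9 CPM. In FPKM, Cdt1 (18.2 ± 0.727 FPKM) and Orc6 (17.4 ± 0.113 FPKM) overlapped, while Cdc6 (8.35 ± 1.08 FPKM) and Orc1 (3.73 ± 0.307 FPKM) were lower in each library (SD, n = 3 controls).

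The genes for helicase activation all had positive fold changes, from 0.052 to 0.13 on the log2 scale, as did 48.8% of all tested genes, and 0 of 6 passed. The sign was opposite in 1 alternative each for Cdc45, Gins1 and Gins3. Without RBM25 replicate 1 the log2 fold change was 0.00064 for Gins2 and 0.0099 for Mcm10. Mcm10, whose product is needed for the start of unwinding, was at 19.3, 18.1 and 15.4 CPM in the Ctrl libraries and 22.3, 18.6 and 16.6 CPM in the RBM25 libraries (log2 fold change 0.13 ± 0.11, standard error; edgeR adjusted p = 0.706). Gins4 was at 33.3, 28.6 and 29.9 CPM in the Ctrl libraries and 33.6, 33.6 and 28.7 CPM in the RBM25 libraries (log2 fold change 0.069 ± 0.067, standard error; edgeR adjusted p = 0.753). RBM25 replicate 1 was the highest library for all 6 of these genes, and the mean of the 6 there was 0.25 above the control mean, against 0.086 and -0.11 in RBM25 replicates 2 and 3. Gins2 showed the contrast within the RBM25 group most plainly, at 20.4, 19.0 and 19.0 CPM in the Ctrl libraries and 24.2, 21.7 and 17.0 CPM in the RBM25 libraries. Cdc45, which joins the helicase as a cofactor, spanned 25.1 to 32.5 CPM.

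The 4 GINS subunits, which act as 1 complex, differed in FPKM: Gins4 was at 24.5 ± 1.96 FPKM, Gins1 at 21.3 ± 1.05 FPKM, Gins3 at 9.20 ± 0.636 FPKM and Gins2 at 4.11 ± 0.167 FPKM (SD, n = 3 controls), in this order in all 6 libraries. The sources used here do not state which gene lengths the authors used. Dividing a gene's share of the reads by its FPKM implies a length of 4.73 kb for Gins2 and 1.25 kb for Gins4, so the order rests on those lengths. By reads alone Gins2 and Gins4 differed less, at 19.5 ± 0.794 and 30.6 ± 2.43 CPM in controls (SD, n = 3). The long implied lengths of Mcm10 (8.87 kb), Pole (8.04 kb), E2f1 (6.15 kb) and Tyms (5.53 kb) lower their FPKM in the same way.

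Among polymerases and primase, Pola1, the catalytic subunit of the polymerase that begins each new strand, had the smallest p of the 39 genes. It was at 28.7, 27.7 and 27.8 CPM in the Ctrl libraries and 32.0, 34.2 and 29.5 CPM in the RBM25 libraries. All 3 RBM25 libraries lay above all 3 controls, and RBM25 replicate 2 rather than replicate 1 was the highest. The log2 fold change was 0.19 ± 0.058 (standard error; edgeR adjusted p = 0.170), with a 95% interval of 0.068 to 0.31 and an unadjusted p of 0.00341, so it did not pass. Over all alternative settings, its adjusted p ran from 0.0127 to 0.647.

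Prim1, the catalytic subunit of primase, which lays the RNA primers for Pola1, was at 91.1, 90.4 and 88.2 CPM in the Ctrl libraries and 101, 97.1 and 85.0 CPM in the RBM25 libraries (log2 fold change 0.071 ± 0.050, standard error; edgeR adjusted p = 0.634). Here RBM25 replicates 1 and 2 were above the controls and replicate 3 below them. Pole, the leading-strand polymerase, spanned 36.5 to 46.8 CPM, with its highest value in RBM25 replicate 1, and Pold1, the lagging-strand polymerase, 33.2 to 39.6 CPM, with its highest value in control replicate 1. In FPKM, Prim1 (45.7 ± 0.717 FPKM) stood well above Pold1 (9.41 ± 0.630 FPKM), Pole (4.79 ± 0.301 FPKM) and Pola1 (4.76 ± 0.0964 FPKM) in controls (SD, n = 3). The ranges of Pola1 and Pole overlapped, and each was the higher in 3 libraries. The ratio of Prim1 to Pola1 FPKM was 9.60 ± 0.151 in controls and 8.86 ± 0.517 with RBM25 (SD, n = 3).

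Pcna, the sliding clamp, had the highest FPKM of the 39 genes, above 96.9% of the genes with a control FPKM over 0. Its FPKM was 146, 134 and 125 FPKM in the Ctrl libraries and 147, 139 and 128 FPKM in the RBM25 libraries. In CPM it was at 183, 168 and 157 CPM in the Ctrl libraries and 185, 175 and 159.6 CPM in the RBM25 libraries, with a log2 fold change of 0.035 ± 0.071 (standard error; edgeR adjusted p = 0.904), and the 2 groups covered nearly the same range. Of the clamp loader subunits, Rfc4 had the smallest p, at 66.5, 61.3 and 59.9 CPM in the Ctrl libraries and 67.7, 66.6 and 60.7 CPM in the RBM25 libraries (log2 fold change 0.059 ± 0.046, standard error; edgeR adjusted p = 0.682). The others, Rfc2, Rfc3 and Rfc5, had log2 fold changes of 0.013, -0.059 and 0.0034, and each had its lowest level in RBM25 replicate 3. In FPKM, Rfc4 (43.9 ± 2.45 FPKM) and Rfc3 (44.0 ± 1.09 FPKM) overlapped, and Rfc2 (31.9 ± 0.899 FPKM) and Rfc5 (25.5 ± 1.83 FPKM) followed with separate ranges (SD, n = 3 controls).

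The genes for single-strand binding and for joining of lagging-strand fragments stayed close to a fold change of 1, with log2 values from -0.0063 to 0.037. Rpa1, the large subunit of the protein that covers single-stranded DNA, was at 132, 123 and 119 CPM in the Ctrl libraries and 135, 125 and 113 CPM in the RBM25 libraries (log2 fold change -0.0063 ± 0.064, standard error; edgeR adjusted p = 0.985). Fen1, the nuclease that trims the flaps between fragments, was at 74.2, 68.2 and 66.7 CPM in the Ctrl libraries and 78.6, 73.5 and 61.7 CPM in the RBM25 libraries (log2 fold change 0.037 ± 0.096, standard error; edgeR adjusted p = 0.929). Rpa2 spanned 37.5 to 49.9 CPM and Lig1, the ligase that seals the fragments, 61.9 to 77.3 CPM. All 4 were highest in RBM25 replicate 1 and lowest in RBM25 replicate 3. After the average deviation of the other genes was subtracted, the SD of Fen1 went from 0.14 to 0.020 and that of Mcm2 from 0.12 to 0.019, the smallest remaining values among the 39.

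Nucleotide synthesis held the gene with the most negative fold change, Tk1, the thymidine kinase of the salvage pathway. It was at 211, 206 and 200.5 CPM in the Ctrl libraries and 199, 201 and 179 CPM in the RBM25 libraries. The highest RBM25 value, in replicate 2, exceeded the lowest control value by a small margin, so the groups overlapped in CPM, whereas in FPKM, at 52.4, 51.2 and 50.0 FPKM in the Ctrl libraries and 49.4, 49.8 and 44.9 FPKM in the RBM25 libraries, they did not. The log2 fold change was -0.092 ± 0.039 (standard error; edgeR adjusted p = 0.365), with a 95% interval of -0.17 to -0.011 and an unadjusted p of 0.0284. Rrm1, the large subunit of ribonucleotide reductase, was second to Pcna in FPKM (109 ± 4.27 FPKM, SD, n = 3 controls) and was at 369.9, 343 and 352 CPM in the Ctrl libraries and 381, 366 and 321 CPM in the RBM25 libraries (log2 fold change 0.0046 ± 0.062, standard error; edgeR adjusted p = 0.989). Its partner Rrm2, the small subunit whose level is known to follow S phase, spanned 132 to 171 CPM (log2 fold change -0.037 ± 0.12, standard error; edgeR adjusted p = 0.944). Tyms, which makes thymidylate, spanned 28.7 to 38.2 CPM (log2 fold change 0.0030 ± 0.10, standard error; edgeR adjusted p = 0.996).

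The regulators of the G1 to S passage were the least uniform. The cyclins E, which activate CDK2, had fold changes of opposite sign. Ccne1 was at 55.6, 56.3 and 55.9 CPM in the Ctrl libraries and 52.8, 55.0 and 50.3 CPM in the RBM25 libraries (log2 fold change -0.084 ± 0.043, standard error; edgeR adjusted p = 0.473), with control values close together and all 3 RBM25 values below them. Ccne2 was at 12.2, 10.6 and 10.2 CPM in the Ctrl libraries and 15.9, 11.6 and 11.0 CPM in the RBM25 libraries (log2 fold change 0.23 ± 0.13, standard error; edgeR adjusted p = 0.561), and only RBM25 replicate 1 lay above the highest control. Neither passed, and their difference was not tested. Ccne1 had the smallest within-group SD of the 39 genes and Ccne2 the largest, but Ccne2 also had the fewest reads, 303 to 523 per library.

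Cdc25a, the phosphatase that removes the inhibitory phosphates of CDK2, was at 20.9, 21.1 and 19.5 CPM in the Ctrl libraries and 24.4, 22.8 and 20.8 CPM in the RBM25 libraries. Its log2 fold change was 0.15 ± 0.067 (standard error; edgeR adjusted p = 0.405), with a 95% interval of 0.0081 to 0.28 and an unadjusted p of 0.0389; 2 RBM25 libraries were above the controls and the other lay among them. E2f1, the transcription factor that drives many of these genes, spanned 35.8 to 45.9 CPM, with its highest value in control replicate 1 and a log2 fold change of -0.038 ± 0.085 (standard error; edgeR adjusted p = 0.914). In FPKM, Ccne1 was at 25.3 ± 0.123 FPKM, E2f1 at 6.88 ± 0.488 FPKM, Cdc25a at 5.02 ± 0.203 FPKM and Ccne2 at 2.65 ± 0.254 FPKM (SD, n = 3 controls).

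Of the chromatin genes, Uhrf1, which recruits the maintenance DNA methyltransferase behind the fork, was at 142, 131 and 129.6 CPM in the Ctrl libraries and 138, 132 and 116 CPM in the RBM25 libraries (log2 fold change -0.062 ± 0.068, standard error; edgeR adjusted p = 0.794). Chaf1a, a subunit of the chromatin assembly factor that deposits histones on new DNA, spanned 40.1 to 53.2 CPM (log2 fold change -0.0043 ± 0.11, standard error; edgeR adjusted p = 0.995). Both had their lowest level in RBM25 replicate 3.

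**Figure D4:**
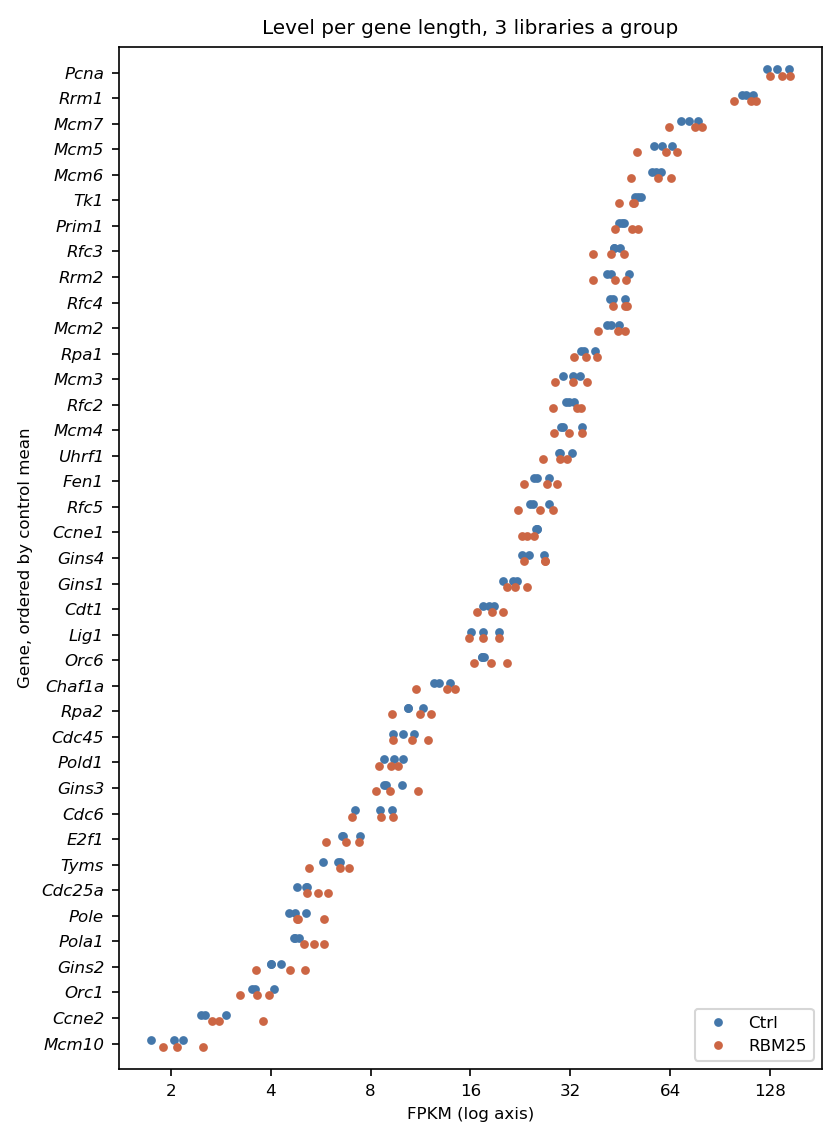
Deposited FPKM of the 39 genes on a log axis, 1 point per library (blue, Ctrl; red, RBM25), ordered by the control mean. Levels run from about 2 FPKM for Mcm10 (1.99 ± 0.225, SD, n = 3 controls) to 135 ± 10.1 FPKM for Pcna, and the points of the groups overlap for all genes but Pola1, Tk1 and Ccne1.

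The wider list of other replication subunits, firing and fork factors, E2F and pocket proteins, S-phase kinases and checkpoint genes, and nucleotide and histone supply had 81 tested genes. Of these, 0 passed by edgeR and 0 by DESeq2, where 0.404% of all tested genes passed by edgeR, and 9 had an unadjusted p under 0.05 by edgeR (11.1%, against 11.2% of all tested genes). Their median log2 fold change was 0.039, with 55 positive and 26 negative, beside -0.0021 for all tested genes. The groups did not overlap for 9 genes with RBM25 above and 3 with RBM25 below, beside 8.31% and 7.94% of all tested genes.

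The gene of the wider list with the smallest p was Orc2, another subunit of the origin recognition complex. It was at 19.4, 16.0 and 16.8 CPM in the Ctrl libraries and 20.4, 21.8 and 22.4 CPM in the RBM25 libraries, with all RBM25 values above all controls and a log2 fold change of 0.31 ± 0.072 (standard error; edgeR adjusted p = 0.0509). Rif1, which controls the timing of origin firing, was at 13.9, 11.9 and 12.8 CPM in the Ctrl libraries and 15.2, 15.4 and 16.9 CPM in the RBM25 libraries (log2 fold change 0.30 ± 0.078, standard error; edgeR adjusted p = 0.0898). In contrast with most of the 39 genes, both were highest in RBM25 replicate 3. Atr, the kinase that responds to stalled forks, was at 11.7, 10.3 and 12.9 CPM in the Ctrl libraries and 13.0, 14.2 and 14.2 CPM in the RBM25 libraries (log2 fold change 0.24 ± 0.084, standard error; edgeR adjusted p = 0.249), with nearly equal values in RBM25 replicates 2 and 3.

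Hells, a chromatin remodeller, was at 30.1, 26.8 and 25.2 CPM in the Ctrl libraries and 34.5, 31.9 and 28.6 CPM in the RBM25 libraries (log2 fold change 0.22 ± 0.071, standard error; edgeR adjusted p = 0.221), and here RBM25 replicate 1 was the highest library. Rbl1, the pocket protein p107 that restrains E2F, was at 17.0, 15.9 and 16.0 CPM in the Ctrl libraries and 18.7, 18.0 and 17.1 CPM in the RBM25 libraries (log2 fold change 0.14 ± 0.069, standard error; edgeR adjusted p = 0.449). Orc2 passed without control replicate 1, without RBM25 replicate 1, without RBM25 replicate 3 and with no filter on low counts. It also passed with the replicate number as a block. Its adjusted p over the alternatives ran from 5.54e-04, with the block, to 0.601. Rif1 and Hells also passed with no filter, at edgeR adjusted p = 0.0238 and 0.0227, where 0.988% of all genes passed. Both passed with the block as well, where 3.38% of all genes did, although the replicate numbers were not taken as pairs. Without RBM25 replicate 3, 6 genes of the wider list passed, all higher, against 1.50% of all genes called higher in that fit. These were Orc2, Hells and, named after their values were seen, Ccna2, Chek1, Gmnn and Nasp.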

How the data were processed

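Poly(A) RNA was sequenced as strand-marked, paired libraries, per the labels' protocols. The submitters' processing notes list the build mRatBN7.2 and the tools HISAT2 and DESeq2; the sources used here do not state how reads were counted, with which annotation, or whether by strand. The counts deposited per gene are raw whole numbers, and the authors' FPKM table has 2 decimals. No sequences or coordinates are given.

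Counts (25543849 to 33130256 per library) were analysed in edgeR 4.0.16 (R 4.3.3): filterByExpr with a minimum count of 10 left 12882 genes, TMM factors were 0.996 to 1.01, and group was the only term of a robust quasi-likelihood fit; p-values were adjusted by Benjamini-Hochberg over all tested genes and called at an adjusted p under 0.05. The SE is the size of the log2 fold change divided by the square root of F, and 95% intervals use the fit's degrees of freedom. Log2 CPM used a prior count of 2. The code was tested on simulated counts. DESeq2 1.42.0, RLE factors, no filter, each library left out, the replicate number as a block, and limma 3.58.1 on log2(FPKM + 0.1) and log2(FPKM + 1) were alternatives. FPKM fits kept genes with at least 0.5 FPKM in 3 libraries, except the fit with no filter.

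The 39 genes and the other lists were chosen with earlier results of these data known. Named with values are, in each role, the gene with the smallest p and that with the highest FPKM, the 3 largest fold changes in each direction, and the gene with the smallest p in each part of the wider list. Other genes are given by their ranges, except Gins2 and the markers Myod1, Myog, Tnnt2, Krt7 and Krt8, which were added after their values were seen.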

Additional observations from a re-analysis of the deposited data

How the results depend on the processing

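Of the 507 values of single replication genes under 13 alternatives, 502 kept their side of the threshold and moved by less than the SD between replicates. Leaving out 1 library can hardly move a value by more than this SD, so the count does not measure stability there. Gins2, for example, went from a log2 fold change of 0.12 to 0.00064 without RBM25 replicate 1. The other 5 values passed the threshold. They were those of Pola1, Prim1 and Gins2 without RBM25 replicate 3 and those of Pola1 (log2 fold change 0.18) and Tk1 (-0.094) with the replicate block. The sign of the fold change was opposite in at least 1 alternative for 27 of the 39 genes. The number of the 39 genes called was 0 to 3 when 1 library was left out, and the median log2 fold change then ran from -0.067 to 0.098; it was 0.0040 with DESeq2 and 0.0012 with log2(FPKM + 0.1). For all genes, the count of 52 was 205 with no filter on low counts, 5 to 352 when 1 library was left out (5 when this was control replicate 2, 21 for control replicate 3, 352 for RBM25 replicate 3), 4 by limma-trend on log2(FPKM + 0.1), 2 on log2(FPKM + 1) and 6 on log2(FPKM + 0.1) with no filter. For the wider list it was 3 with no filter and 0 to 6 when 1 library was left out. The cause of these differences was not tested.

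The groups share replicate numbers. Over all tested genes, the deviations of same-numbered libraries from their group means correlated at 0.054, -0.068 and -0.0059. Control replicates 2 and 3 correlated best with another number, so the numbers were not taken as pairs. The mean of the 39 genes, however, fell from replicate 1 to replicate 3 in both groups. Whether same-numbered libraries share a source was not tested. With the replicate block, 436 genes were called, 2 of the 39 (Pola1 higher, Tk1 lower, beside 2.00% and 1.38% of all genes called in those directions) and 3 of the wider list (Orc2, Rif1 and Hells). The library means of the 39 genes moved by less than the SD between replicates with RLE factors, with FPKM and with the median over genes. With 3 libraries a group, the 95% intervals of the 39 genes reached a median of 0.18 (log2) to either side of the estimate, and smaller changes could be missed for many of them.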

Other observations

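The libraries that were high and low for replication genes were also so for genes outside the lists, and others were placed the opposite way. The genes here were chosen after their values were seen, as the 7 of each kind with the widest range among genes at least as abundant as the lowest of the 39, and none passed the test of RBM25 against control. With the highest level in RBM25 replicate 1 and the lowest in RBM25 replicate 3, the widest ranges belonged to Id1 and Id3, whose products bind and inhibit bHLH transcription factors. Id1 was at 36.1, 34.2 and 31.9 CPM in the Ctrl libraries and 49.7, 42.1 and 30.3 CPM in the RBM25 libraries, and the highest library exceeded the lowest 1.64-fold. Id3 was at 119, 117 and 111 CPM in the Ctrl libraries and 165, 143 and 101 CPM in the RBM25 libraries, a 1.63-fold range. In both genes RBM25 replicates 1 and 2 were above all controls and RBM25 replicate 3 below them. Next were RT1-N3, an MHC class I gene, with a range of 1.49-fold, Vwa1, an extracellular matrix gene (1.44-fold), Fxyd5, a regulator of the sodium pump (1.41-fold), Rmi2, a partner of the BLM helicase (1.40-fold), and Cdca5, which encodes the cohesion factor sororin (1.39-fold). Of these, RBM25 replicate 2 was also above all controls for RT1-N3, Fxyd5 and Rmi2, and lay among the controls for Vwa1 and Cdca5.

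With the lowest level in RBM25 replicate 1 and the highest in RBM25 replicate 3, the widest range was that of Myog, 1.75-fold. Next were Dbp, a clock output gene, at 12.5, 13.6 and 13.7 CPM in the Ctrl libraries and 9.88, 12.0 and 15.7 CPM in the RBM25 libraries, and Ccng2, a cyclin known to be high in cells that have stopped dividing, at 12.7, 13.5 and 14.0 CPM in the Ctrl libraries and 10.2, 12.3 and 15.1 CPM in the RBM25 libraries. Tnnt2, given above, had a range of 1.46-fold, and Selenop, a secreted carrier of selenium, one of 1.41-fold. Pik3ip1, an inhibitor of PI3 kinase, was at 51.1, 55.0 and 56.8 CPM in the Ctrl libraries and 41.9, 49.4 and 58.3 CPM in the RBM25 libraries. Gadd45a, a growth arrest gene, was at 81.6, 85.7 and 88.7 CPM in the Ctrl libraries and 70.3, 80.1 and 96.5 CPM in the RBM25 libraries. Their log2 fold changes between the plasmids were -0.24 for Myog, -0.095 for Dbp, -0.10 for Ccng2, 0.034 for Tnnt2, -0.21 for Selenop, -0.13 for Pik3ip1 and -0.056 for Gadd45a, with edgeR adjusted p = 0.811, 0.865, 0.782, 0.972, 0.626, 0.792 and 0.921.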
